A study of Arabidopsis thaliana with 2 samples.

Results

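Pectin methylesterases remove methyl groups from the pectin that pollen tubes secrete at their tip, and 10 genes encoding such enzymes were followed here in Arabidopsis thaliana pollen tubes. They were taken by gene identifier from a table of 33557 genes: VANGUARD1 (VGD1, AT2G47040), its homologs VGDH1 (AT2G47030) and VGDH2 (AT3G62170), PPME1 (AT1G69940), and AT5G07410, AT5G07420, AT5G07430, AT5G49180, AT3G05610 and AT3G06830. All 10 were found in the table. A gene was counted as measured when either library reached 10 FPKM (fragments scaled to transcript length and library), which 8 of the 10 did and AT5G07420 and AT3G06830 did not. All 8 reached it in both libraries.

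The series holds 2 libraries of semi-in-vivo pollen tubes, 1 of the double mutant labelled drop1- drop2- (drop) and 1 of wild type (WT), and its title concerns sperm cells carried as cargo by the tube. For each library, hand-picked grains (500 to 600 per stigma) germinated on a pistil emasculated 36 hours earlier. Tubes that had emerged 300 to 400 µm from the cut style onto medium with 10% sucrose were collected, and those of 2 stigmas were pooled for Smart-seq2 of polyadenylated RNA, so each library is a bulk pool although the titles say single cell. The treatment text is the same for both samples and speaks of mutant grains, so each genotype rests on its genotype label. No gene of the annotation used is named DROP1 or DROP2 (0 found), so the mutated genes were not checked. With 1 library per genotype there is no replicate error and no test across samples, and "higher" or "lower" describes these 2 libraries. In bulk RNA, fewer cells of a type and less RNA per cell cannot be told apart.

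Pectin leaves the Golgi apparatus in a highly methylated form. Demethylation in the tube wall lets calcium cross-link the chains behind the tip, so the balance between these enzymes and their protein inhibitors is known to set how stiff the wall is. VGD1 is known for the growth of tubes through the style and transmitting tract, and PPME1 for the shape and growth rate of the tube. The members fall into 2 structural classes. In 6 of them, VGD1, VGDH1, VGDH2, AT5G49180, AT3G05610 and AT3G06830, the RefSeq notes name a pectinesterase inhibitor domain beside the catalytic domain, and the coding sequences hold 568 to 669 codons. The other 4, PPME1, AT5G07410, AT5G07420 and AT5G07430, have notes that name no inhibitor domain, hold 361 codons each and have 5 exons instead of 2 or 3.

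Several members are close copies of each other, which bears on how fragments could be assigned. PPME1 and AT5G07410 lie on chromosomes 1 and 5, yet 96.6% of 1086 aligned coding bases were identical, and their transcripts shared an exact run of 89 bases. VGD1 and VGDH1, neighbours on chromosome 2 separated by 1368 bases, had 91.8% identity over 1758 aligned coding bases and a shared run of 74 bases. AT5G07420 and AT5G07430, neighbours on chromosome 5, had 81.1% identity. VGDH2, on chromosome 3, had 75.9% identity with VGD1, with no shared run over 26 bases. AT5G49180 and AT3G06830 had 74.3% identity. Values of PPME1 and AT5G07410, and of VGD1 and VGDH1, are the most uncertain in this respect.

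Upstream sequences are shown for the pairs VGD1 with VGDH2 and PPME1 with AT5G07410, because within each pair the genes resemble each other while their deposited values went in opposite directions. That opposition depends on scale: the log2 ratio of VGD1 was -0.40 relative to the vegetative markers, and that of PPME1 was below 0 under 4 of the 6 scalings described further on. Each sequence is the 200 bases before the annotated gene start in the RefSeq annotation of TAIR10.1, read 5′ to 3′ on the gene's strand, and capitals mark the longest exact run shared within the pair. TAIR10.1 is not the name of the build in the submitters' processing notes (TAIR10), and no coordinates come from the deposited table.
VGD1, chr2:19330198-19330397, minus strand: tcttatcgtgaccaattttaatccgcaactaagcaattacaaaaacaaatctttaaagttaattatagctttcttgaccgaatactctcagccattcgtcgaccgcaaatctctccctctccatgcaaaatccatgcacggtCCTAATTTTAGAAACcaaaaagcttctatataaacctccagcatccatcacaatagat
VGDH2, chr3:23018510-23018709, minus strand: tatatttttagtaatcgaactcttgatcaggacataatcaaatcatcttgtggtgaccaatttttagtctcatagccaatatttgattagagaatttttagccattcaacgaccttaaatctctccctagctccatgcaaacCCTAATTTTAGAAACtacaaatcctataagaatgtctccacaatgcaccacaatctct
PPME1, chr1:26345059-26345258, minus strand: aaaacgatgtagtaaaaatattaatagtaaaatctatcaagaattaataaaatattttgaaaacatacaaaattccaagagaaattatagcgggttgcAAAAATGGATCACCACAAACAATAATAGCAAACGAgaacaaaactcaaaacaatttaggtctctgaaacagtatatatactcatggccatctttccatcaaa
AT5G07410, chr5:2345558-2345757, plus strand: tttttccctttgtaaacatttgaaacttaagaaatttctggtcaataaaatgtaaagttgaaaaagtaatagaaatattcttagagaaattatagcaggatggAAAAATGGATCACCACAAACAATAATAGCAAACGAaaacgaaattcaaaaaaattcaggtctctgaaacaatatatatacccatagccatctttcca

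The run shared by VGD1 and VGDH2 was 15 bases long and ended 43 bases before the annotated start in both genes. That shared by PPME1 and AT5G07410 was 35 bases long and ended 67 bases before the start of PPME1 and 62 before that of AT5G07410. Each run was present in 2 of the 27443 protein-coding upstream windows of this length, those of its own pair. A run picked as shared by a pair cannot be in fewer windows. The same count of 2 held for the longest runs of AT5G07420 with AT5G07430 (19 bases) and of VGD1 with VGDH1 (14 bases). It is thus not particular to the pairs shown. The pollen element AGAAA, searched on both strands, was present upstream of 10 of 10 members and in 75.3% of all windows. GTGA was present upstream of 9 of 10 members and in 70.1% of all windows, and TATAAA upstream of 4 of 10 and in 41.0%. The motifs can share bases at their edges, and a match is a description of letters, not of a site in use.

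Expression was deposited as FPKM, which scales fragments to transcript length and library, so levels of different genes can be set side by side. The FPKM of all genes summed to 3668030 in drop and 1299600 in WT, a ratio of 2.82, and how the columns were put on one scale is not given in the sources used here. Depth is not given either. From the most frequent low value in long transcripts, 1 fragment was taken as about 0.244 FPKM kb in drop and 0.136 in WT. The peak bin held 29 of 246 values below 1 FPKM kb in drop and 20 of 251 in WT. In either library that peak could stand for more than 1 fragment. Fragment numbers below are rough estimates from that value, and they count PCR copies as well as molecules. A measured gene is called higher in drop where log2((drop + 1)/(WT + 1)) reached 2-fold up, and lower where it reached 2-fold down. The added 1 understates ratios of genes with low values.

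As deposited, 6 of the 8 measured members were higher in drop and 2 were lower. Over all 3633 measured genes, 45.4% were higher and 27.9% lower. VGD1, VGDH1, PPME1, AT5G07430, AT5G49180 and AT3G05610 were the higher ones, and VGDH2 and AT5G07410 the lower ones. The members' median log2 ratio was 1.495, against 0.81 over all 3633 genes. Ratios in this table also went with level: of the 265 genes that reached 1000 FPKM in either library, 82.6% were higher and 12.1% lower, with a median log2 ratio of 1.87. The 4 members of that level, VGD1, VGDH1, AT5G07430 and AT3G05610, had log2 ratios of 1.43 to 2.11 and a median of 1.65.

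**Figure D1:**
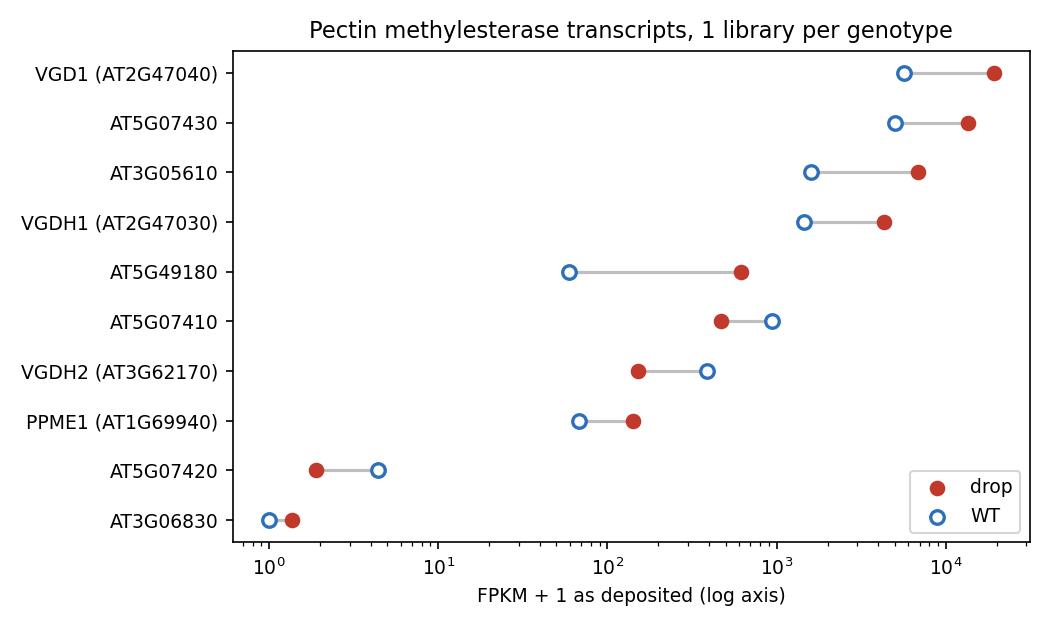
Deposited FPKM + 1 (log axis) of the 10 pectin methylesterase genes, 1 filled point for drop and 1 open point for WT per gene, with no error because each genotype has 1 library. VGD1 is at the top with 19159.9 FPKM in drop and 5688 in WT, and the points of AT5G07410, VGDH2 and AT5G07420 are the ones with drop to the left of WT.

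Among the members with an inhibitor domain, VGD1 was the most abundant, with 19159.9 FPKM in drop and 5688 in WT, a ratio of 3.37. It stood at rank 53 of all genes in drop and rank 54 in WT, so its place in the table was almost the same in both libraries. VGDH1, its neighbour and closest copy in this class, was at 4296 FPKM in drop and 1460.0 in WT, a ratio of 2.94, and at rank 116 in drop and 117 in WT. VGDH1 held 22.4% of the VGD1 level in drop and 25.7% in WT. The pair therefore kept nearly the same proportion, and together they had 23456 FPKM in drop and 7148 in WT.

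VGDH2, the third gene of the VANGUARD group, was lower in drop, with 150.9 FPKM in drop and 386.9 in WT. Its log2 ratio was -1.35, and WT held 2.56 times the drop value. Its rank was 669 in drop and 254 in WT. Set against VGD1 within the same library, which removes any scaling factor, VGDH2 was at 0.788% of VGD1 in drop and 6.80% in WT, an 8.63-fold difference. After quantile normalization, which is not a factor, it was at 0.984% of VGD1 in drop and 5.15% in WT, a 5.23-fold difference. The drop value rests on about 1400.1 estimated fragments and the WT value on about 6429, so neither is a value at the edge of detection.

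AT3G05610, the longest member with 669 codons, was at 6851 FPKM in drop and 1588 in WT, a ratio of 4.32. It stood at 35.8% of VGD1 in drop and 27.9% in WT. AT5G49180 had the highest ratio of the members, with 619 FPKM in drop and 58.0 in WT, or 10.7-fold higher, a log2 ratio of 3.39. Only 99 of the 3633 genes had a higher log2 ratio. Its rank was 310 in drop and 900 in WT, and it stood at 3.23% of VGD1 in drop and 1.02% in WT. After quantile normalization those shares were 3.63% in drop and 0.591% in WT. The estimate is about 5528 fragments in drop and 929 in WT.

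AT3G06830, the closest copy of AT5G49180 among the members, was at 0.368 FPKM in drop, about 3.43 fragments, and was listed at 0 in WT. It overlaps BRCC36B on the opposite strand by 2210 bases, and Smart-seq2 fragments do not mark strand. BRCC36B itself was at 1.98 FPKM in drop and 2.72 in WT, so the value of AT3G06830 cannot be told apart from that gene's fragments.

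Among the short members, AT5G07430 was the most abundant, with 13601.5 FPKM in drop and 5033 in WT, a ratio of 2.70. It was the second most abundant member in both libraries, at 71.0% of VGD1 in drop and 88.5% in WT. AT5G07410, which lies upstream of it in the same tandem row on chromosome 5, went the other way. It was at 470.1 FPKM in drop and 942 in WT, a log2 ratio of -1.0015 that passes the 2-fold rule by a narrow margin. Its rank was 361 in drop and 157 in WT. The level of AT5G07410 was 3.46% of that of AT5G07430 in drop and 18.7% in WT, a 5.42-fold difference that no scaling factor changes and that was 3.93-fold after quantile normalization. The drop value rests on about 2835 estimated fragments and the WT value on about 10177.

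AT5G07420, between those genes in the row, was near the floor with 0.886 FPKM in drop and 3.40 in WT, about 5.20 and 35.7 fragments. It was below 10 FPKM in both libraries and was not counted. The row thus holds the second most abundant member beside one below that limit.

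PPME1 was at 140.8 FPKM in drop and 66.7 in WT, a ratio of 2.11 and a log2 ratio of 1.07, just past the 2-fold rule. Its rank was 700 in drop and 817 in WT. AT5G07410, its near copy, stood at 3.34 times PPME1 in drop and at 14.1 times PPME1 in WT, a 4.23-fold difference. The estimates for PPME1 are about 836 fragments in drop and 710 in WT. The sum of both copies, which depends less on how fragments were divided between them, was 610.9 FPKM in drop and 1009 in WT, a ratio of 0.606.

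Together the 10 genes summed to 45290.5 FPKM in drop and 15226 in WT, a ratio of 2.97 beside the 2.82 of all genes. They held 1.23% of all summed FPKM in drop and 1.17% in WT. With the 50 highest and the organelle genes left out, they held 3.92% in drop and 2.85% in WT, so how alike these parts are depends on which genes enter the sum. VGD1 held 42.3% of the members' sum in drop and 37.4% in WT, and AT5G07430 held 30.03% in drop and 33.1% in WT. AT3G05610 held 15.1% in drop and 10.4% in WT, and VGDH1 held 9.49% in drop and 9.59% in WT. These 4 genes made up 96.9% of the sum in drop and 90.4% in WT. Of the less abundant members, AT5G07410 held 1.04% in drop and 6.19% in WT. VGDH2 held 0.333% in drop and 2.54% in WT. AT5G49180 held 1.37% in drop and 0.381% in WT. By structural class, the 6 members with an inhibitor domain held 68.6% of the sum in drop and 60.3% in WT, and the 4 short members 31.4% in drop and 39.7% in WT.

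**Figure D2:**
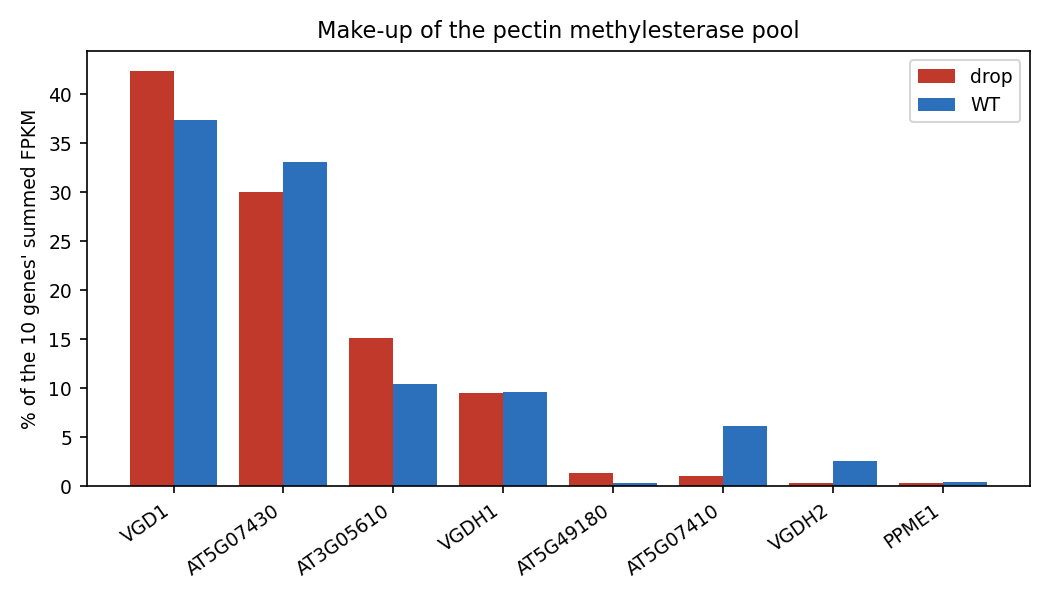
Share of the 10 genes' summed FPKM (percent, bars from 0) held by each of the 8 measured members, drop left of WT. VGD1 and AT5G07430 lead in both libraries, and AT5G07410 (1.04% in drop, 6.19% in WT) and VGDH2 (0.333% in drop, 2.54% in WT) are the bars with the widest proportional gap below WT.

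The direction of most members depended on how the libraries were scaled, and that of 3 did not. Apart from quantile normalization, each rescaling divides drop by 2.15 to 4.43 relative to WT, which lowers the members' ratios. The 2 members lower as deposited therefore had to stay lower under these, and only quantile normalization could have changed them. At equal sums, 1 member was higher and 2 were lower in drop, where 8.64% and 43.0% of all 3633 genes were. With the median ratio set to 1 over genes that reached 10 FPKM in both libraries, 2 members were higher and 2 lower, where 15.9% and 38.3% of all genes were. Quantile normalization gave 1 higher and 2 lower, where 35.2% and 28.8% of all genes were. Leaving the organelle genes and the 50 highest genes out of the sums gave 1 higher and 2 lower members, where 15.7% and 38.3% of all genes were. With the median ratio of 7 vegetative pollen tube markers set to 1, a scaling chosen after the data were seen, 1 member was higher and 3 were lower, where 4.02% and 54.3% of all genes were.

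AT5G49180 was higher under all 6 scalings, the deposited values included, with log2 ratios from 1.25 to 3.39. VGDH2 was lower under all 6, with log2 ratios from -3.47 to -1.35, and so was AT5G07410, from -3.14 to -1.0015. The call of AT5G07410 is less sure, as its deposited value passes narrowly and its fragments could be confused with those of PPME1. The sum of these 2 copies had a deposited ratio of 0.606, short of the 2-fold rule, and a log2 ratio of -2.22 at equal sums. Of all 3633 genes, 146 were higher and 992 lower under all 6, or 4.02% and 27.3%. The 146 equals the number higher relative to the vegetative markers alone, the largest divisor, while 1015 were lower as deposited. VGD1 had a log2 ratio of 1.75 as deposited, 0.25 at equal sums, 0.019 after quantile normalization and -0.40 relative to the vegetative markers. VGDH1 and AT5G07430 moved in the same way, with 0.060 and -0.063 at equal sums. AT3G05610 was at 0.61 at equal sums and -0.039 relative to the vegetative markers. PPME1 was below 0 under 4 of the other scalings and at 0.36 after quantile normalization. The median over the 8 members was -0.0013 at equal sums, against -0.58 over all 3633 genes. Over the 265 genes that reached 1000 FPKM it was 0.38 at equal sums, and of the 4 members of that level only AT3G05610 was above it.

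**Figure D3:**
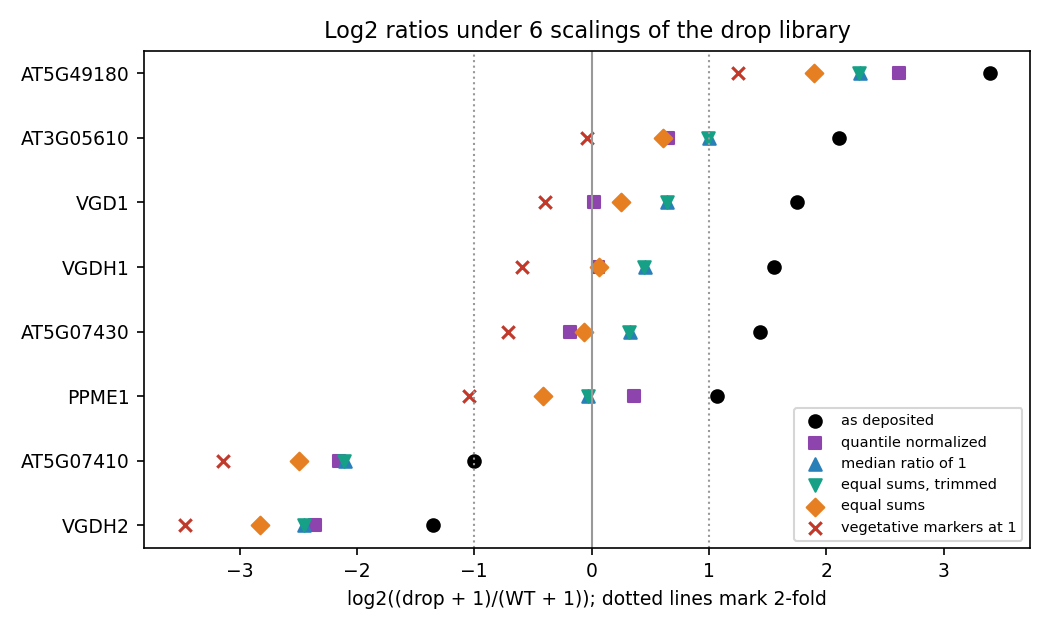
Log2((drop + 1)/(WT + 1)) of the 8 measured members under 6 scalings, with a solid line at 0 and dotted lines at 2-fold. AT5G49180 lies at or beyond 1.25 and VGDH2 and AT5G07410 at or beyond -1.0015 on their sides throughout, while the other 5 members cross or approach 0.

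Markers of the cells in the tube were read beside these values. Of 7 vegetative pollen tube markers, 7 were higher in drop as deposited, where 45.4% of all 3633 measured genes were. At equal sums 2 of the 7 were higher, where 8.64% of all measured genes were. The 7 markers summed to 5236 FPKM in drop and 1168 in WT, with none at 0. One of them, the receptor kinase ANX1, which keeps the tube from bursting, was at 160.3 FPKM in drop and 26.0 in WT. Their median log2 ratio was 2.14, above that of VGD1, VGDH1, AT5G07430, AT3G05610 and PPME1. Of 7 sperm markers, the 6 measured ones were all lower in drop, where 27.9% of all measured genes were. Of the 6, 1 had reached 10 FPKM in WT only. The 7 sperm markers summed to 3361 FPKM in drop and 48999 in WT, with none at 0. Drop held between 0.0259 of the WT level, for PCR11, and 0.147, for GEX1. For VGDH2 and AT5G07410, also lower in drop, that fraction was 0.390 and 0.499. The part of the lower sperm RNA in these differences was not tested. Of 6 markers of style, carpel and green tissue, HEC1 and CRC were listed at 0 in both libraries, and the list summed to 9.11 FPKM in drop and 104 in WT, mostly the Rubisco gene RBCS3B at 3.22 in drop and 83.7 in WT. Their part in the results was not tested.

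**Figure D4:**
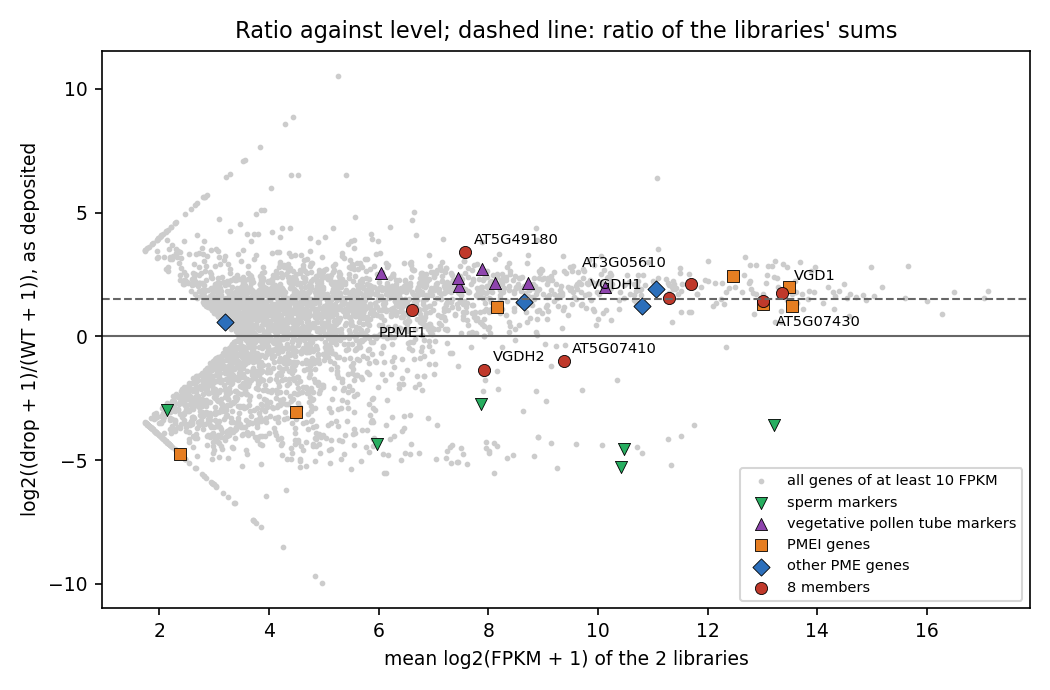
Log2((drop + 1)/(WT + 1)) as deposited against the mean log2(FPKM + 1) of the 2 libraries, for the 3633 measured genes (grey) and the measured genes of the listed groups. The dashed line is the ratio of the libraries' sums (1.497 on the log2 scale). VGDH1, AT5G07430 and VGD1 lie nearest to it among the members (1.56, 1.43 and 1.75), AT3G05610 above it at 2.11, PPME1 below it at 1.07, AT5G49180 above it at 3.39, and VGDH2 and AT5G07410 below 0 at -1.35 and -1.0015.

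The rest of the pectin methylesterase family was mostly listed at 0 or low. Of 56 further family genes, 30 were listed at 0 in both libraries and 4 were measured. Of these 4, 3 were higher in drop as deposited and 0 lower, where 45.4% and 27.9% of all 3633 measured genes were. At equal sums 0 were higher and 0 lower, where 8.64% and 43.0% of all measured genes were. AT2G26450, the most abundant, was at 4164 FPKM in drop and 1096 in WT, close to VGDH1. AT3G17060 was at 2721 FPKM in drop and 1171 in WT. AT5G61680 was at 649 FPKM in drop and 249 in WT. The 10 members made up 85.7% of the summed FPKM of all 66 family genes in drop and 85.6% in WT. With the limit lowered to 1 FPKM, 14 of the 56 could be counted, 3 higher and 8 lower in drop, against 26.4% and 30.4% of all 9880 genes at that limit. Of those 8, 7 reached 1 FPKM in WT only, so passing the limit already placed them on the lower side.

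Inhibitor proteins of the PMEI type bind the enzymes and block them. The list of 21 such genes comes from a superfamily that also holds invertase inhibitors, so some may act on other enzymes. Of the 7 measured ones, 5 were higher and 2 lower in drop as deposited, where 45.4% and 27.9% of all 3633 measured genes were. At equal sums 0 were higher and 2 lower, where 8.64% and 43.0% of all measured genes were. PMEI1, an inhibitor gene of pollen, was at 23096 FPKM in drop and 5724 in WT, a level like that of VGD1. PMEI2 was among the 8 of the 21 listed genes that were at 0 in both libraries. AT1G10770 was at 18241 FPKM in drop and 7704 in WT. AT5G50030 was at 12937 FPKM in drop and 5202 in WT. Those lower in drop reached 10 FPKM in WT only, which fixed their direction: AT5G62350 was at 6.80 FPKM in drop and 64.7 in WT, and AT3G47380 was listed at 0 in drop and at 26.2 in WT. The summed FPKM of the inhibitor list was 1.28 times that of the 66 esterase genes in drop and 1.20 times in WT, a proportion that no scaling factor changes. It depends on the list: with AT2G47050 and AT4G02250, abundant genes of the superfamily outside the list, it was 2.31 in drop and 2.23 in WT. With every gene the annotation puts in the inhibitor superfamily outside the esterase family, 76 in all, it was 2.80 in drop and 2.67 in WT. Both wider lists were drawn up after the data were seen.

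Polygalacturonases and pectate lyases cut the pectin backbone once it is demethylated. Of the 7 measured among 15 listed, 5 were higher and 0 lower in drop as deposited, where 45.4% and 27.9% of all 3633 measured genes were. At equal sums 0 were higher and 1 lower, where 8.64% and 43.0% of all measured genes were. AT3G07820 was at 24514 FPKM in drop and 8550.1 in WT, and AT3G01270 at 21410.1 FPKM in drop and 6612 in WT. Both were thus at levels like those of VGD1 and AT5G07430. The listed genes that make and methylate pectin were low in both libraries, and others of these families were not looked up. Of 9 listed, 3 were measured, the galacturonosyltransferase genes GAUT1, GAUT13 and GAUT14. As deposited 2 of them were higher, where 45.4% of all measured genes were, and at equal sums 0 were, where 8.64% were. All 3 reached 10 FPKM in drop only, so the limit itself set that direction. GAUT13, the most abundant of them, was at 18.7 FPKM in drop and 7.43 in WT.

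The genes next to members on the chromosome were read to see whether whole stretches moved together, a comparison chosen after the data were seen. AT2G47050, an inhibitor-superfamily gene 1347 bases from VGD1, was at 35964 FPKM in drop and 11549 in WT, a ratio of 3.11 close to those of VGD1 and VGDH1. AT3G62180, of the same superfamily and 1074 bases from VGDH2, was at 698 FPKM in drop and 364 in WT, a ratio of 1.92, while VGDH2 was lower in drop. SUS2, the sucrose synthase gene 165 bases from AT5G49180, was at 2.57 FPKM in drop and 0.630 in WT. Its ratio was 4.08, with both values below 10 FPKM. GDH2, next to AT5G07430, was at 149.7 FPKM in drop and 121 in WT. Of the neighbours named here, AT2G47050 thus had a ratio similar to that of VGD1, while AT3G62180 and GDH2 differed from VGDH2 and AT5G07430. The log2 ratio of AT2G47050 was 1.64, beside a median of 1.87 over the 265 genes that reached 1000 FPKM. Genes of this level elsewhere thus had such ratios too, and the part of the stretch in the likeness was not tested.

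By distance in log2(FPKM + 1) over the 2 libraries, the 5 genes nearest to VGD1 were AT5G19580, annotated as a glyoxal oxidase-related protein, AT1G34825, AT4G27580, the inhibitor-superfamily gene AT4G02250 and PMEI1. AT5G19580, the nearest, was at 19767 FPKM in drop and 5891 in WT, and PMEI1 was at 23096 in drop and 5724 in WT. The 5 nearest to PPME1 were AT4G32240, AT1G17490, AT5G20100, the EF-hand gene AT3G25600 and AT4G20880, the nearest at 140.9 FPKM in drop and 68.0 in WT. With 2 libraries this likeness is one of level and ratio only.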

How the data were processed

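RNA was measured in 1 drop and 1 WT library of pooled Arabidopsis pollen tubes. The authors deposited 1 table of FPKM, with a column for each library, per the file headers. The submitters' processing notes name the genome build TAIR10 and the tools TopHat2 2.0.14 and Cufflinks 2.2.1. For the parameters, the annotation release and any scaling between columns, nothing is given in the sources used here.

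Ratios were log2((drop FPKM + 1)/(WT FPKM + 1)), over all 33557 genes, with a minimum of 10 FPKM in either library and a 2-fold rule. No p-value was computed, since each genotype has 1 library. The 5 other scalings are described in the report, where equal sums sets each library to 1000000 FPKM. The 2-fold rule was tested on simulated data with a known library factor, as deposited, by the median ratio and by quantiles. The deposited scale does not remove that factor. Equal sums, the sums with genes left out and the vegetative markers were not tested in this way. In the simulation nearly all genes shared the library factor, whereas here 45.4% of measured genes were called higher and 27.9% lower as deposited. It therefore does not show how the rule or the scalings behave on these 2 libraries. Fragment values came from genes with 1 transcript of at least 3 kb. Members and lists were chosen with earlier results of these data known. All 10 members are named. Naming from each other list was open to the 3 measured genes highest in mean FPKM and to the 2 farthest from 0 in log2 ratio, and nearest genes were the 5 closest in both libraries. HEC1, CRC, GEX1, PMEI2, BRCC36B and genes next to members were named after their values were seen. Of the table's identifiers, 32810 matched the RefSeq annotation of TAIR10.1, which gave names, gene structure and sequences. Coding sequences were aligned with Biopython 1.88. Tables were computed with Python 3.11.15 and pandas 2.3.3.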

Additional observations from a re-analysis of the deposited data

How the results depend on the processing

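Scaling moved the most values, and each such shift is set by the scaling itself. The members higher in drop numbered 6 as deposited. They numbered 1 at equal sums, 2 by the median ratio, 1 by quantiles, 1 with trimmed sums (organelle genes and the 50 highest left out), 1 relative to the vegetative markers and 2 under a 4-fold rule. The members lower in drop numbered 2, but 1 with a pseudocount of 10, where AT5G07410 is at -0.99, and 0 under a 4-fold rule. They numbered 3 with a minimum of 1 FPKM or none, where AT5G07420 enters. That gene reached 1 FPKM in WT only, so passing this limit already placed it on the lower side. Of all genes at that limit, 30.4% were lower. With a pseudocount of 10 the higher ones numbered 5, as PPME1 came to 0.98. The share over all genes was not computed for the 4-fold rule or the pseudocount of 10. Those counts therefore say nothing about the members relative to other genes. The members' median of 1.495 became -0.0013 at equal sums, 0.39 by the median ratio, 0.037 by quantiles, 0.38 with trimmed sums and -0.65 relative to the vegetative markers. It was between 1.25 and 1.496 under other pseudocounts and filters. The summed ratio of 2.97 became 1.05, 1.38, 0.982, 1.38 and 0.671 under these 5 scalings in the same order.

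Log2 ratios that turned sign relative to the vegetative markers were those of VGD1 (-0.40), VGDH1 (-0.59) and AT3G05610 (-0.039). AT5G07430 turned to -0.063 at equal sums, -0.18 by quantiles and -0.71 relative to the vegetative markers. PPME1 turned to -0.41 at equal sums, -0.027 by the median ratio, -0.034 with trimmed sums and -1.05 relative to the vegetative markers.

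Other family genes higher in drop numbered 3 as deposited, and 0 at equal sums, by the median ratio, by quantiles and with trimmed sums. Those lower numbered 0, and 8 with a minimum of 1 FPKM, 7 of which passed in WT only. Inhibitor genes higher numbered 5, and 0, 1, 0 and 1 under the same 4 scalings. Those lower numbered 2, and 6 with a minimum of 1 FPKM, 4 of which passed in WT only, where 30.4% of all genes were lower. The members' share of summed FPKM was 3.92% in drop and 2.85% in WT with trimmed sums. It was 0.595% in drop and 0.622% in WT without VGD1 and VGDH1. Without that pair among the esterases, inhibitor over esterase FPKM was 2.31 in drop and 2.01 in WT. With AT2G47050 and AT4G02250 among the inhibitors it was 2.31 in drop and 2.23 in WT, and with the whole superfamily 2.80 in drop and 2.67 in WT.

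No paired analysis was possible because there is a single library of each genotype, and no replicate was left out for that reason. Depth limits AT5G07420 and AT3G06830, whose values rest on few fragments.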
